A study of Mus musculus with 12 samples.

Results

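Keratins are the intermediate filament proteins of epithelial cells, and 10 of their genes are described here in the kidneys of 2 lines of fat-deficient mice. The genes were taken by name and form a basal class, Krt5, Krt6a, Krt14, Krt15 and Krt17, and a class of simple and superficial keratins, Krt7, Krt8, Krt18, Krt19 and Krt20. All 10 had 1 probe set with a single gene symbol, among 19938 genes tested, and 42 other keratin genes were measured as well. The list was chosen on earlier results of these arrays, the differences between Pparg null and mixed control kidneys, in which Krt5 and Krt19 were already among the larger rises in Pparg null kidneys, so the counts and p-values of the keratins in that comparison, and in the difference between the lines that contains it, describe the list and support nothing beyond it.

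Whole-kidney RNA of mice aged 3 weeks was hybridised to 12 Affymetrix mouse arrays in 4 groups of 3. The mice labelled PpargΔ/Δ, called Pparg null here after that label, stand for a deletion in the gene of the nuclear receptor PPARγ and were on a mixed C57BL6/SV129 background, which the mixed controls shared. The AZIP mice, known for a transgene whose product keeps fat from forming, have labels that name no Pparg deletion, were on the FVB background, and were compared with FVB controls. RNA of 3 mice was pooled for every array, with 36 mice used, so n is 3 pools per group and p-values measure the spread between pools, not between single mice. The labels give neither how the Pparg deletion was made, nor which part of the gene it removes, nor which cells carry it or the transgene. The Pparg probe set averaged 8.07 in Pparg null kidneys and 7.96 in mixed controls, not lower in the mutants (0.11 ± 0.06, adjusted p = 0.339). Whether its probes lie in the deleted part is not known, so these values do not bear out the label, and Pparg null means the libraries labelled so throughout. The kidney genes Umod of the thick ascending limb and Slc34a1 of the proximal tubule were between 13.02 and 13.24 on every array. Values are RMA values on the log2 scale, and differences are mutant minus control with the standard error (SE) from limma. A gene rose or fell where its limma p adjusted over all 19938 genes was under 0.05.

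Keratin filaments are built from pairs of a type II and a type I protein. Krt5 with Krt14 or Krt15 forms the filaments of the basal layer of stratified epithelia, Krt6a and Krt17 are made in stressed or wounded epithelium, and Krt8 with Krt18 or Krt19 and Krt7 form those of simple epithelia. In the kidney, the collecting ducts and the urothelium of the renal pelvis carry Krt7, Krt8, Krt18 and Krt19, basal urothelial cells carry Krt5, and the superficial cells of mouse urothelium carry Krt20 and the uroplakins. PPARγ is known in mouse urothelium as a factor of terminal differentiation. In whole-kidney RNA, more cells of a type and more RNA per cell cannot be told apart.

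RefSeq promoter windows (GRCm38.p6) were available for 6 of the 10 genes, Krt5, Krt14, Krt7, Krt8, Krt18 and Krt20. They run from 250 bases before to 50 bases after the gene's start, except that of Krt14. The Krt14 window, chr11:100205981-100206280 on the minus strand, lies inside the gene's span of 100203162 to 100207510. It does not cover the 5′ end of that span, and the counts of 6 windows below include it. The windows of Krt5, the basal keratin with the largest difference in Pparg null kidneys, of Krt7, the simple keratin that rose in both lines, and of Krt20, the superficial keratin, are shown 5′ to 3′ on the gene's strand. They lie at chr15:101712856-101713155 on the minus strand for Krt5, chr15:101412153-101412452 on the plus strand for Krt7 and chr11:99438104-99438403 on the minus strand for Krt20. Capitals mark every match, on either strand, to the motifs TATAAA (the TATA box), ATAAAAG (a variant of it), TGANTCA (AP-1), GGGCGG (SP1), ACCGGT (grainyhead factors) and AGGTCA (the half-site of many nuclear receptors, PPARγ among them), of which TATAAA and ATAAAAG can overlap. The motifs were chosen after the values of the genes were seen, and ATAAAAG after the windows were.
Krt5: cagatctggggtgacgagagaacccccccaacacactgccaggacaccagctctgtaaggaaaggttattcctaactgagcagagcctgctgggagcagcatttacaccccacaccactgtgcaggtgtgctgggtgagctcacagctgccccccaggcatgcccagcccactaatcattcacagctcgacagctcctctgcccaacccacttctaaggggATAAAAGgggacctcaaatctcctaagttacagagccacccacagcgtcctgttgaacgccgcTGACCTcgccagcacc
Krt7: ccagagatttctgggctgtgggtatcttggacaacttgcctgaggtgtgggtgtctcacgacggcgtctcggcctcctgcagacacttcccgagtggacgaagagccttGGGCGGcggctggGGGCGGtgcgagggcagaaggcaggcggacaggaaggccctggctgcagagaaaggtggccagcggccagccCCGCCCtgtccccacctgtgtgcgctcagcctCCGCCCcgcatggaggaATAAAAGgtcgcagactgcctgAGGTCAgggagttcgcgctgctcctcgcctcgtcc
Krt20: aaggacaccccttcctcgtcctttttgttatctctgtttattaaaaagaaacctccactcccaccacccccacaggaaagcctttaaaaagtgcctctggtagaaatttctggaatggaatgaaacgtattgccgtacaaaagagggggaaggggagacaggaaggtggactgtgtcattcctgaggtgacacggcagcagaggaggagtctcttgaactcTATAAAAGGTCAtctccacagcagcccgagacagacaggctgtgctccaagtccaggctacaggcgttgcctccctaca

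ATAAAAG began 29 bases before the start in Krt5, 28 bases before it in Krt20 and 7 bases before it in Krt7. In Krt8 the match was on the other strand and began 5 bases before the start. ATAAAAG was in 4 of the 6 keratin windows, against 5.42% of 32851 mouse promoter windows of the same length. It was chosen after these windows were seen, so that count is no evidence of enrichment. TATAAA was in 2 of the 6, against 13.6% of all windows, and in Krt20 it runs on into the other 2 motifs. The half-site AGGTCA was in 5 of the 6, against 16.3% of all windows. The one without it was the Krt14 window, which lies inside the gene. GGGCGG occurred 4 times in the window of Krt7 and in none of the other 5, against 35.7% of all windows. TGANTCA and ACCGGT, in 7.81% and 2.33% of all windows, were in none of the 6. A match is a description of these letters only, and no binding was measured.

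The first comparison asked how the keratins differ in kidneys labelled PpargΔ/Δ. All 10 keratins were higher on average in Pparg null kidneys than in mixed controls, and 4 of the 5 basal and 2 of the 5 simple and superficial genes rose. Over all genes tested, 2.67% rose and 2.62% fell in this comparison. The median difference was 0.71 over the basal class and 0.24 over the simple and superficial class, against -0.01 over all genes tested. The count of 6 keratins that rose was between 4 and 6 with any 1 of the 12 arrays left out, and Krt6a and Krt7 were the genes whose calls were lost.

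Among the basal keratins, Krt5, the type II keratin of basal cells, had the largest difference. Its probe set read 8.55, 8.32 and 8.95 in Pparg null kidneys, against 6.86, 6.67 and 6.91 in mixed controls. Every Pparg null array stood far above every mixed control array. The difference was 1.80 ± 0.14 (3.47-fold, adjusted p = 0.000180).

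Krt14, the usual type I partner of Krt5, read 7.84, 7.28 and 7.88 in Pparg null kidneys, against 6.68, 6.69 and 6.74 in mixed controls. The groups did not overlap, and the array with the lowest Krt5 of the Pparg null group, array 2, also had the lowest Krt14. Krt14 rose by 0.97 ± 0.14 (1.95-fold, adjusted p = 0.00343).

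Krt15, a type I keratin of basal cells that pairs with Krt5 too, read 7.40, 7.08 and 7.19 in Pparg null kidneys, against 6.57, 6.39 and 6.57 in mixed controls. Its groups were likewise apart, and it rose by 0.71 ± 0.09 (1.64-fold, adjusted p = 0.00184). Krt5, Krt14 and Krt15 kept their calls with any 1 array left out, the highest adjusted p being 0.00151, 0.0178 and 0.00897.

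The stress-linked keratins differed less. Krt6a read 5.30, 5.24 and 5.28 in Pparg null kidneys, against 4.96, 4.93 and 4.97 in mixed controls, and rose by 0.32 ± 0.08 (adjusted p = 0.0369). That call was lost without any 1 of the 6 arrays compared, or without FVB control 2 (adjusted p up to 0.109). Krt17 read 6.03, 6.02 and 6.46 in Pparg null kidneys, against 5.78, 5.71 and 5.93 in mixed controls, a difference of 0.36 ± 0.12 that did not pass (adjusted p = 0.0954). Both probe sets are among the dimmest 25% of the genes tested, and without Pparg null 3 the difference of Krt17 was 0.22. Krt6b, a near-identical copy of Krt6a, read 4.14, 4.16 and 4.48 in Pparg null kidneys, against 4.14, 4.07 and 4.07 in mixed controls (0.17 ± 0.11, adjusted p = 0.438), and probes may not tell the copies apart.

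**Figure D1:**
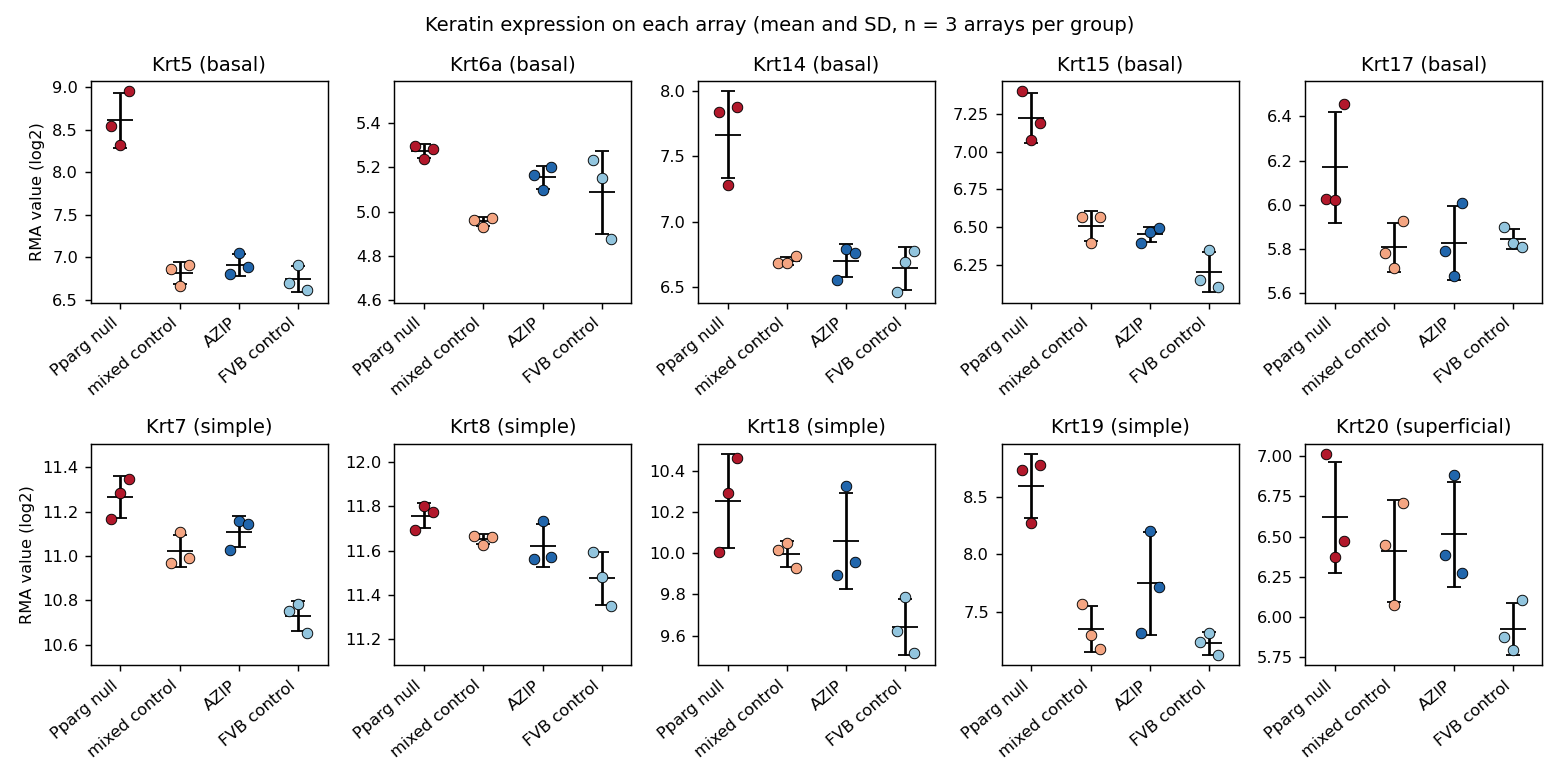
RMA values (log2) of the 10 keratins on each of the 12 arrays, with the mean and SD of each group (n = 3 arrays). The basal keratins Krt5, Krt14 and Krt15 set the 3 Pparg null arrays apart from the other 9, and 8 of the 10 keratins, all but Krt6a and Krt17, have their lowest mean in FVB controls.

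Among the simple keratins, Krt19, a ductal keratin that is also made by injured tubules, had the largest difference. It read 8.73, 8.27 and 8.77 in Pparg null kidneys, against 7.57, 7.29 and 7.18 in mixed controls. The groups did not overlap, and Pparg null array 2 was again the lowest of its group. Krt19 rose by 1.25 ± 0.20 (2.37-fold, adjusted p = 0.00555) and kept the call with any 1 array left out (adjusted p up to 0.0266).

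Krt7, a type II keratin of ducts and urothelium, read 11.17, 11.29 and 11.35 in Pparg null kidneys, against 10.97, 11.11 and 10.99 in mixed controls, and rose by 0.24 ± 0.06 (1.18-fold, adjusted p = 0.0480). The call was lost without any 1 of 10 arrays, among them Pparg null 2 and 3 and mixed control 1, 2 and 3 (adjusted p up to 0.156), and also with arrays brought to equal medians, normalized again or fitted with only the groups compared. Krt8, the main type II keratin of tubules and ducts, read 11.70, 11.80 and 11.77 in Pparg null kidneys, against 11.66, 11.63 and 11.66 in mixed controls (0.11 ± 0.07, adjusted p = 0.420). Its partner Krt18 read 10.01, 10.29 and 10.46 in Pparg null kidneys, against 10.02, 10.05 and 9.93 in mixed controls (0.26 ± 0.13, adjusted p = 0.289). The Krt18 values of the groups overlapped, neither gene of the pair passed, and without Pparg null 3 the difference of Krt18 was 0.15.

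Krt20, the keratin of superficial urothelial cells, read 7.02, 6.37 and 6.47 in Pparg null kidneys, against 6.45, 6.08 and 6.71 in mixed controls. The groups overlapped, and the difference of 0.21 ± 0.20 (adjusted p = 0.626) had a 95% interval from -0.24 to 0.66 and was 0.01 without Pparg null 1. In all, 8 of the 10 keratins had every Pparg null array above every mixed control array, as did 12.9% of all genes.

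The second comparison asked how the same genes differ in the AZIP line. In AZIP kidneys 9 of the 10 keratins were higher on average than in FVB controls, and 1 of them, Krt7, rose. Over all genes tested, 1.30% rose and 1.13% fell. The median difference was 0.07 over the basal class and 0.42 over the simple and superficial class, against 0.0028 over all genes. An unadjusted limma p under 0.05 was found for 6 keratins, Krt15, Krt7, Krt8, Krt18, Krt19 and Krt20. The share of all genes at that level is not given here. This count and the like counts below therefore cannot be set against it.

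Krt7 read 11.03, 11.16 and 11.14 in AZIP kidneys, against 10.75, 10.78 and 10.65 in FVB controls. The groups did not overlap, and Krt7 rose by 0.38 ± 0.06 (1.30-fold, adjusted p = 0.0147). Without AZIP 2 or FVB control 1 the call was lost (adjusted p up to 0.0592).

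The other simple and superficial keratins were higher on average in AZIP kidneys without passing. Krt18 read 9.89, 10.33 and 9.96 in AZIP kidneys, against 9.62, 9.79 and 9.52 in FVB controls (0.42 ± 0.13, adjusted p = 0.115). Krt20 read 6.38, 6.89 and 6.27 in AZIP kidneys, against 5.88, 5.79 and 6.11 in FVB controls (0.59 ± 0.20, adjusted p = 0.161). Neither gene overlapped between the groups, and AZIP array 2 was the highest of its group for both.

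Krt19 read 7.31, 8.20 and 7.72 in AZIP kidneys, against 7.24, 7.32 and 7.12 in FVB controls (0.52 ± 0.20, adjusted p = 0.202). AZIP array 2 was again the highest, array 1 lay within the FVB control range, and without array 2 the difference was 0.29. Krt8 read 11.56, 11.73 and 11.57 in AZIP kidneys, against 11.59, 11.48 and 11.35 in FVB controls (0.15 ± 0.07, adjusted p = 0.302), a difference of 0.09 without AZIP 2 or without FVB control 3. The same AZIP array 2 had the highest mean of the tubular injury genes in its group, 8.99 against 8.64 on each of the other AZIP arrays. This was not particular to injury genes. Array 2 was also highest for smooth muscle (8.15 against 7.96 and 8.02), cell cycle (9.15 against 8.85 and 8.48) and the urothelial and linker lists described below. It was not highest for the collecting duct, proximal tubule, thick limb, podocyte, squamous, other filament and other keratin lists. The part of these genes in that array's keratin values was not tested.

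None of the 5 basal keratins passed in AZIP kidneys. Krt5 read 6.80, 7.05 and 6.88 in AZIP kidneys, against 6.70, 6.91 and 6.61 in FVB controls, an overlap. Its difference of 0.17 ± 0.14 (adjusted p = 0.612) had a 95% interval from -0.13 to 0.47, which lies below the interval of 1.49 to 2.10 in the Pparg null comparison. Krt14 read 6.56, 6.79 and 6.76 in AZIP kidneys, against 6.46, 6.70 and 6.78 in FVB controls (0.06 ± 0.14, adjusted p = 0.892).

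Krt15 was the one basal keratin whose AZIP arrays, at 6.40, 6.47 and 6.49, all lay above the FVB control arrays, at 6.15, 6.35 and 6.10 (0.25 ± 0.09, adjusted p = 0.170). Krt6a (0.07 ± 0.08, adjusted p = 0.745) and Krt17 (-0.02 ± 0.12, adjusted p = 0.967) overlapped between AZIP kidneys and FVB controls. In all, 4 of the 10 keratins had every AZIP array above every FVB control array, as did 11.0% of all genes.

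**Figure D2:**
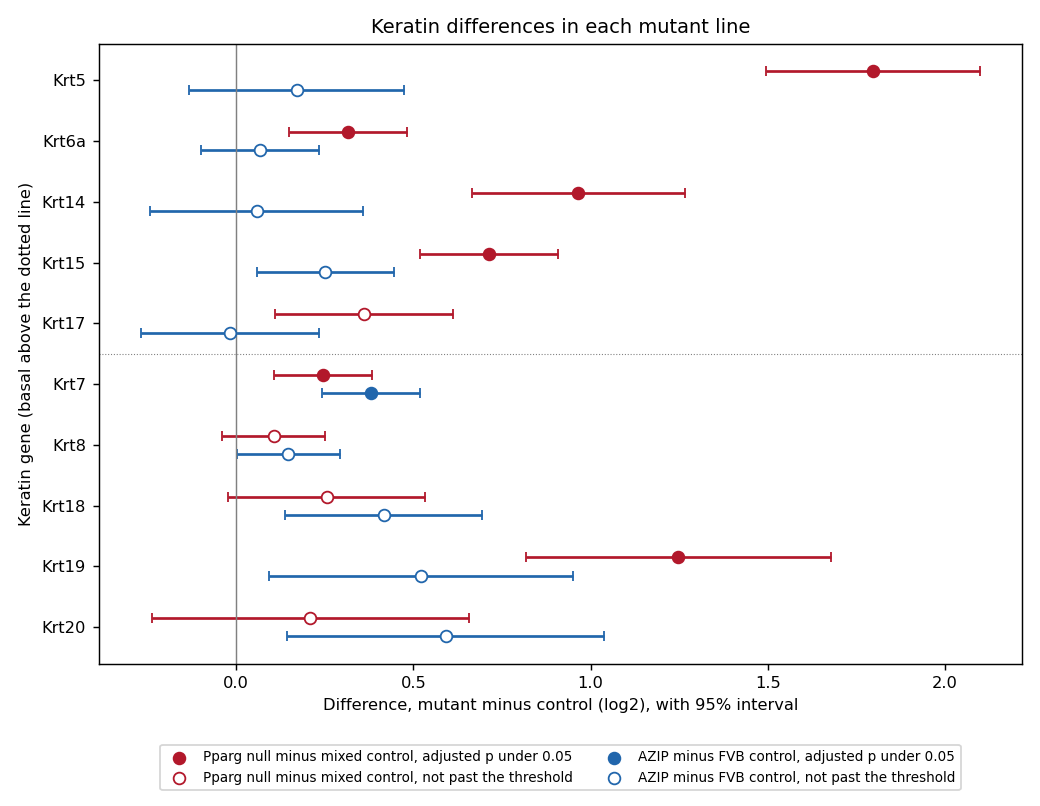
Difference of each keratin, mutant minus control on the log2 scale, with its 95% interval from limma, in Pparg null kidneys (red) and AZIP kidneys (blue). Filled points passed the adjusted threshold, 6 in the Pparg null comparison and 1 in the AZIP comparison.

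The 2 lines were compared as the Pparg null effect minus the AZIP effect. This quantity contains the Pparg null values on which the list was chosen, so for the keratins it is a description and not independent evidence that the lines differ. Krt5 was past the threshold, with a difference of effects of 1.63 ± 0.20 (3.09-fold, adjusted p = 0.0215), and was 1 of the 4 genes of 19938, or 0.0201%, that were. The others, named after their values were seen, were the smooth muscle actin Actg2, also higher in the Pparg null comparison, and the complement regulator Cfi and the prostaglandin synthase Ptgds, with lower effects there. The Krt5 call was lost without mixed control 1 or 2, AZIP 1, 2 or 3 or FVB control 2 (adjusted p up to 0.0915), while the difference stayed between 1.45 and 1.77.

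The difference of effects was 0.91 ± 0.19 for Krt14 (adjusted p = 0.374), 0.46 ± 0.13 for Krt15 (adjusted p = 0.606) and 0.73 ± 0.28 for Krt19 (adjusted p = 0.834). It was -0.14 ± 0.09 for Krt7 (adjusted p = 0.902), with a 95% interval from -0.33 to 0.06, so the effects on Krt7 were not shown to differ. For Krt8, Krt18 and Krt20 it was -0.04 ± 0.09, -0.16 ± 0.18 and -0.38 ± 0.29, each with an adjusted p over 0.9. All 5 basal keratins had a larger effect in the Pparg null comparison, and 4 of the 5 simple and superficial ones had a larger effect in the AZIP comparison, with Krt19 the exception.

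The mean of the 5 basal and of the 5 simple and superficial keratins was taken on each array as a description, with no test. The basal mean was 7.02, 6.79 and 7.15 in Pparg null kidneys, against 6.17, 6.08 and 6.22 in mixed controls. It was 6.14, 6.22 and 6.27 in AZIP kidneys, against 6.09, 6.19 and 6.04 in FVB controls. The basal mean thus set the Pparg null arrays apart, while AZIP and FVB control arrays overlapped.

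The simple and superficial mean was 9.72, 9.60 and 9.77 in Pparg null kidneys, against 9.33, 9.23 and 9.29 in mixed controls. It was 9.24, 9.66 and 9.33 in AZIP kidneys, against 9.02, 9.03 and 8.95 in FVB controls. Both mutant lines were above their own controls on every array, by 0.41 on average in the Pparg null and by 0.41 in the AZIP comparison. In the Pparg null comparison Krt19 differed by 1.25 and the rest of the class by 0.11 to 0.26. In the AZIP comparison the class ran from 0.15 to 0.59, and its mean difference was 0.29 without AZIP array 2. The basal mean minus the other mean was 0.42 higher in Pparg null kidneys than in mixed controls and 0.31 lower in AZIP kidneys than in FVB controls (-0.31), and the groups did not overlap in either line. Without AZIP array 2 the AZIP change was -0.18, while the Pparg null change lay between 0.37 and 0.47 with any 1 of its arrays left out. The same quantity averaged -2.90 in FVB controls and -3.13 in mixed controls, which did not overlap, and -3.20 in AZIP kidneys.

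**Figure D3:**
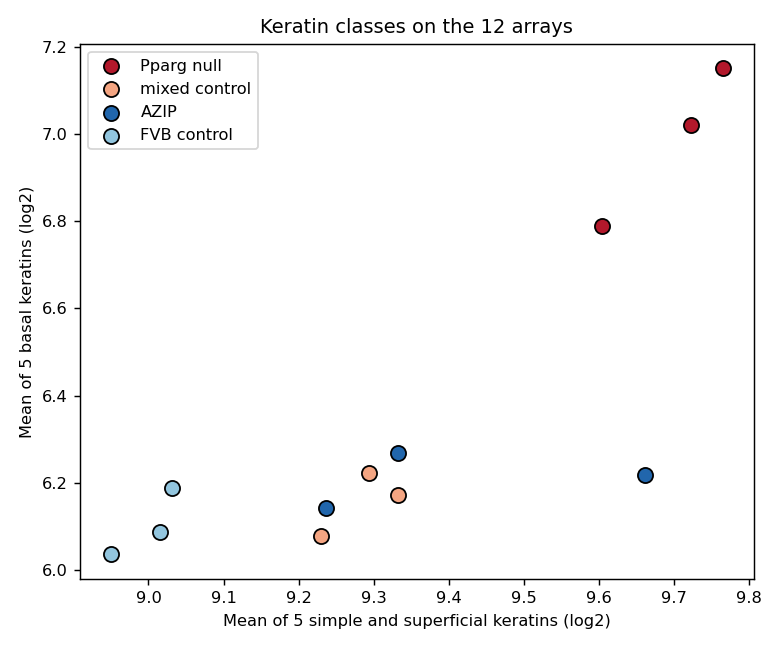
Mean RMA value (log2) of the 5 basal keratins against that of the 5 simple and superficial keratins, 1 point per array. The 3 Pparg null arrays lie at 6.79 or above on the basal axis and the other 9 arrays at 6.27 or below, while FVB controls lie lowest on the simple and superficial axis.

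The control groups differed in some of these genes. Krt7 was lower in FVB controls than in mixed controls (-0.29 ± 0.06, adjusted p = 0.0162), with no overlap between the 10.65 to 10.78 of FVB controls and the 10.97 to 11.11 of mixed controls, and the call was lost without mixed control 2 or FVB control 3 (adjusted p up to 0.0686). Krt15 was nearest to passing among the others (-0.31 ± 0.09, adjusted p = 0.0604), with no overlap between FVB and mixed controls, and it passed under 5 alternatives (adjusted p down to 0.0290). Krt18 (-0.35 ± 0.13, adjusted p = 0.132), Krt20 (-0.49 ± 0.20, adjusted p = 0.206) and Krt8 (-0.18 ± 0.07, adjusted p = 0.156) were lower on average in FVB controls without passing. Krt5 (-0.07 ± 0.14, adjusted p = 0.836) and Krt14 (-0.06 ± 0.14, adjusted p = 0.876) had 95% intervals of -0.38 to 0.23 and -0.36 to 0.24. Of the 10 keratins 1 was lower and 0 higher in FVB controls, against 3.72% lower and 3.50% higher over all genes. With arrays brought to equal medians, those shares over all genes turned to 904 genes higher and 635 lower, against 697 and 742 as deposited. The FVB control arrays also serve the AZIP comparison, so the lower Krt7 and Krt15 there and their higher values in AZIP kidneys rest on the same 3 arrays. Strain, litter and handling cannot be told apart between the control groups.

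Of the 42 other keratin genes, which include the keratins of hair and of squamous epithelium, 1 rose in Pparg null kidneys and 0 fell, and 0 passed in AZIP kidneys, with 5 and 3 at an unadjusted limma p under 0.05. Over all genes tested, 2.67% rose and 2.62% fell in Pparg null kidneys, and 1.30% rose and 1.13% fell in AZIP kidneys. The other keratin that rose was Krt4, a type II keratin of the suprabasal layers of internal squamous epithelia. Krt4 read 5.75, 5.86 and 5.94 in Pparg null kidneys, against 5.22, 5.28 and 5.30 in mixed controls (0.58 ± 0.11, adjusted p = 0.0140). The groups did not overlap, and the call was lost without Pparg null 3 or mixed control 1 (adjusted p up to 0.0610). Krt13, the type I partner of Krt4, read 5.52, 5.66 and 5.66 in Pparg null kidneys, against 5.46, 5.50 and 5.51 in mixed controls (0.12 ± 0.06, adjusted p = 0.308). The epidermal keratins Krt1 (0.0024 ± 0.07) and Krt10 (-0.03 ± 0.06) had adjusted p of 0.989 and 0.835 there. The probe sets of Krt4, Krt13 and Krt1 are among the dimmest 25% of the genes tested.

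Genes listed for basal urothelium were read next, and which kidney cells gave their values was not tested. Beside the counts of this list and of the further lists stand the shares over all genes tested. In Pparg null kidneys 2.67% rose and 2.62% fell, and in AZIP kidneys 1.30% rose and 1.13% fell. Of 14 measured basal urothelium genes 0 passed in either comparison, with 6 at an unadjusted limma p under 0.05 in the Pparg null and 1 in the AZIP comparison, and without AZIP 2 as many as 2 rose in Pparg null kidneys. The median was 0.13 in Pparg null kidneys, with 11 of the 14 genes above 0 and a range from -0.15 to 0.62. In AZIP kidneys it was 0.06, with 9 above 0 and a range from -0.10 to 0.35. The largest Pparg null difference was that of Cd44, at a mean of 7.37 against 6.75 in mixed controls. Trp63, which encodes the transcription factor p63 of basal cells, read 6.78, 6.84 and 6.80 in Pparg null kidneys, against 6.65, 6.77 and 6.77 in mixed controls (0.07 ± 0.05, adjusted p = 0.461). The list's mean was 7.07 to 7.17 in Pparg null kidneys, against 6.92 to 7.01 in mixed controls, and 6.95 to 7.08 in AZIP kidneys, against 6.95 to 7.00 in FVB controls. The probe sets of Dsg3, Dsc3 and Bnc1 are among the dimmest 25% of the genes tested, while Itga6 averaged 11.04 over the 12 arrays. The count of 0 therefore does not show that basal cells were unchanged.

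Of 9 superficial urothelium genes 1 fell and 0 rose in Pparg null kidneys, with a median of -0.18, while 0 passed in AZIP kidneys, with a median of 0.14. At an unadjusted limma p under 0.05 there were 7 genes in the Pparg null and 2 in the AZIP comparison. The gene that fell was Upk1b, a uroplakin of the apical plaques of superficial cells. It read 6.98, 6.93 and 6.93 in Pparg null kidneys, against 7.98, 7.70 and 7.88 in mixed controls (-0.91 ± 0.15, 0.534-fold, adjusted p = 0.00830). The groups did not overlap, and the call held with any 1 array left out (adjusted p up to 0.0429).

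Its partner Upk3a read 6.81, 6.94 and 7.10 in Pparg null kidneys, against 7.15, 7.18 and 7.15 in mixed controls (-0.21 ± 0.09, adjusted p = 0.243). Upk1a (-0.48 ± 0.14, adjusted p = 0.0769) and Upk2 (-0.18 ± 0.08, adjusted p = 0.233) did not pass. The other way, 4 of the 9 genes were above 0 without passing, Psca, a surface antigen (0.45 ± 0.13, adjusted p = 0.0636), the gasdermin Gsdmc2 (0.30 ± 0.12, adjusted p = 0.173), Upk3b (0.20 ± 0.15, adjusted p = 0.520) and Upk3bl (0.09 ± 0.08, adjusted p = 0.584). In AZIP kidneys Upk1b was at 0.20 ± 0.15 (adjusted p = 0.595). The Upk1b effects of the 2 lines differed by -1.10 ± 0.22, which did not pass (adjusted p = 0.332). The mean of the list was 7.45 to 7.62 in Pparg null kidneys, against 7.63 to 7.73 in mixed controls, and 7.69 to 7.96 in AZIP kidneys, against 7.58 to 7.85 in FVB controls.

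Among 16 transcription factors of urothelium, 1 rose and 2 fell in Pparg null kidneys and 0 passed in AZIP kidneys. At an unadjusted limma p under 0.05 there were 8 genes in the Pparg null and 7 in the AZIP comparison. Klf5, a factor of basal and ductal epithelium, read 8.66, 8.59 and 8.66 in Pparg null kidneys, against 8.06, 8.26 and 8.22 in mixed controls, and rose by 0.46 ± 0.07 (adjusted p = 0.00620). Grhl3, needed for superficial cells of mouse bladder, fell by 0.18 ± 0.04 (-0.18, adjusted p = 0.0415), and Ovol1, a repressor in differentiating epithelium, by 0.24 ± 0.06 (-0.24, adjusted p = 0.0331). These falls were lost without any 1 of 9 arrays for Grhl3 and of 4 for Ovol1 (adjusted p up to 0.126 and 0.106). Foxa1 (-0.02 ± 0.10) and Gata3 (0.00055 ± 0.08), which act with PPARγ in urothelium, had adjusted p of 0.952 and 0.998.

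Of 20 genes of squamous and cornified epithelium 3 rose and 1 fell in Pparg null kidneys, with a median of 0.03, while 2.67% of all genes rose and 2.62% fell. The risen genes were Krt4, the calmodulin-like Calml3 (0.41 ± 0.11, adjusted p = 0.0471) and Sprr2f, a small proline-rich protein of the cornified envelope. Sprr2f read 5.73, 4.79 and 5.40 in Pparg null kidneys, against 4.00, 4.17 and 4.24 in mixed controls (1.17 ± 0.18, adjusted p = 0.00446). Its copies are near-identical, so probes may not tell them apart. Tgm1, the transglutaminase that cross-links the envelope, fell in both lines, to 8.46, 8.32 and 8.38 in Pparg null kidneys, against 9.33, 8.98 and 9.13 in mixed controls (-0.76 ± 0.14, adjusted p = 0.0113), and in AZIP kidneys by -0.73 ± 0.14 (adjusted p = 0.0210). In AZIP kidneys it was the one gene of the list that passed. The epidermis markers Krt1, Krt10, Lor and Ivl did not pass in either line. The probe sets of Krt4, Calml3, Sprr2f, Krt1, Lor and Ivl are among the dimmest 25% of the genes tested. Calml3 was lost without any 1 of 9 arrays (adjusted p up to 0.159). Tgm1 was lost in the Pparg null comparison without mixed control 1 (adjusted p = 0.0533), and in the AZIP comparison without AZIP 2 or FVB control 1 or 2 (adjusted p up to 0.0745).

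Keratin filaments are anchored at desmosomes by linker proteins. The list of desmosome and linker genes has 15 members, among them the intermediate filament gene Des, which the next list counts again. Of these 15 genes 2 rose in Pparg null kidneys, the desmoplakin gene Dsp (0.33 ± 0.07, adjusted p = 0.0185) and the epiplakin gene Eppk1 (0.40 ± 0.08, adjusted p = 0.0141). In AZIP kidneys 0 passed. At an unadjusted limma p under 0.05 there were 8 genes in the Pparg null and 6 in the AZIP comparison. Over all genes tested, 2.67% rose in Pparg null and 1.30% in AZIP kidneys. Dsp read 9.80, 9.74 and 9.92 in Pparg null kidneys, against 9.48, 9.58 and 9.40 in mixed controls, with no overlap. Both calls were lost without Pparg null 3 or mixed control 1, that of Dsp also without mixed control 3 and that of Eppk1 also without Pparg null 2 (adjusted p up to 0.0705). Among 15 genes of other intermediate filaments, vimentin, Vim, the filament of mesenchymal cells and of regenerating tubules, was the one that passed, with a rise of 0.48 ± 0.08 in Pparg null (adjusted p = 0.00830) and of 0.37 ± 0.08 in AZIP kidneys (adjusted p = 0.0392). The AZIP rise of Vim was lost without any 1 of 10 arrays (adjusted p up to 0.145).

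**Figure D4:**
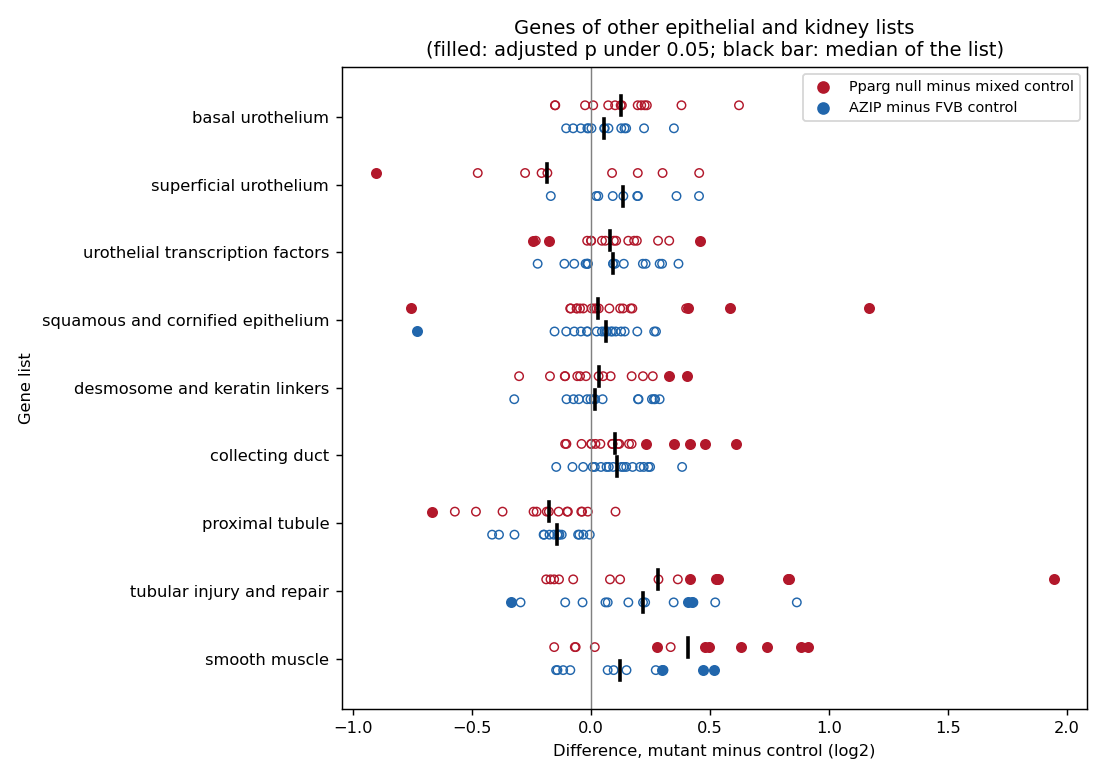
Difference of each gene of 9 lists, mutant minus control on the log2 scale, in Pparg null kidneys (red, upper row of each list) and AZIP kidneys (blue, lower row). Filled points passed the adjusted threshold and black bars are list medians, which for superficial urothelium are -0.18 in the Pparg null and 0.14 in the AZIP comparison.

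Markers of other cell types that whole kidney holds, among them ducts, injured tubules and the smooth muscle of vessels and pelvis, were read beside the keratins. Of 18 collecting duct genes 5 rose in Pparg null kidneys (2.67% of all genes tested did), with a median of 0.10. Among the 5 were the sodium channel subunit Scnn1a (0.35 ± 0.05, adjusted p = 0.00527) and the water channel Aqp2 (0.48 ± 0.10, adjusted p = 0.0220). In AZIP kidneys 0 passed, with a median of 0.11. At an unadjusted limma p under 0.05 there were 6 genes in the Pparg null and 7 in the AZIP comparison. Leaving out Pparg null 2, Pparg null 3, mixed control 1 or mixed control 3 left 1 of the 5. The mean of this list was 10.15 to 10.16 in Pparg null kidneys, against 9.95 to 10.07 in mixed controls, and 9.85 to 10.07 in AZIP kidneys, against 9.83 to 9.87 in FVB controls.

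Of 15 measured injury and repair genes 6 rose in Pparg null kidneys, led by the lipocalin Lcn2 (1.94 ± 0.24, adjusted p = 0.00184), and 2 rose and 1 fell in AZIP kidneys. The means of that list were 8.84 to 9.09 in Pparg null kidneys, against 8.56 to 8.66 in mixed controls, and 8.64 to 8.99 in AZIP kidneys, against 8.54 to 8.58 in FVB controls. Of 12 smooth muscle genes 7 rose in Pparg null and 3 in AZIP kidneys. Beside the counts of both lists, 2.67% of all genes tested rose in Pparg null and 1.30% in AZIP kidneys. The smooth muscle means were 8.15 to 8.29 in Pparg null kidneys, against 7.81 to 7.87 in mixed controls, and 7.96 to 8.15 in AZIP kidneys, against 7.86 to 7.93 in FVB controls. The Pparg null counts were as low as 3 for injury, when Pparg null 3 or any mixed control array was left out, and 4 for smooth muscle, without Pparg null 2 or mixed control 1, and the AZIP rises were as few as 0 in either list, for both of them when FVB control 1 or 2 was left out.

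Over all genes tested, 2.67% rose and 2.62% fell in Pparg null kidneys, and 1.30% rose and 1.13% fell in AZIP kidneys. Of 15 cell cycle genes 6 rose in Pparg null and 0 in AZIP kidneys, and all 15 were above 0 in both, with 10 and 3 at an unadjusted limma p under 0.05. Their means were 9.15 to 9.49 in Pparg null kidneys, against 8.38 to 8.94 in mixed controls, and 8.48 to 9.15 in AZIP kidneys, against 8.25 to 8.78 in FVB controls, and leaving out Pparg null 1, Pparg null 3, mixed control 1 or mixed control 2 left 2 of the 6. Proximal tubule genes had medians of -0.18 in Pparg null and -0.14 in AZIP kidneys, with 1 of 15 falling in Pparg null and 0 passing in AZIP kidneys. At an unadjusted limma p under 0.05 there were 8 genes in each comparison. Of 10 thick limb and distal genes 1 rose and 1 fell in Pparg null kidneys and 0 passed in AZIP kidneys, with 2 and 0 at an unadjusted limma p under 0.05. Of 7 podocyte genes Wt1 rose in both lines (0.29 and 0.28). These falls, and both Wt1 rises, were lost without any 1 of 2 to 5 arrays. The part of these cell types and of the injury genes in the keratin differences was not tested.

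The genes most like Krt5 and Krt19 were sought by Pearson correlation over the 12 arrays among the 2274 other genes with an SD of at least 0.2. For Krt5 they were the calprotectin subunit S100a8 and Sprr2g (r = 0.949 for each), the GABA receptor subunit Gabrp (0.938), Actg2 (0.936), Sprr2f (0.934) and Slitrk1 (0.925). For Krt19 they were Gabrp (0.961), the neutrophil granule protein Ngp (0.952), the galectin Lgals3 (0.940), Bmp15 (0.937), Lcn2 (0.932) and the desaturase Scd2 (0.923). The 12 arrays share 4 group means, so these values follow the group differences and say nothing of a common control. The probe sets of S100a8, Sprr2g, Sprr2f and Ngp are among the dimmest 25% of the genes tested.

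Gabrp was on both lists, picked for likeness to Krt5 and Krt19 on these arrays, so its values and limma p describe that choice. It read 7.45, 7.05 and 7.15 in Pparg null kidneys, against 6.16, 6.07 and 6.03 in mixed controls, and 5.90, 6.65 and 6.06 in AZIP kidneys, against a mean of 5.94 in FVB controls. As for Krt19, the Pparg null arrays stood apart, array 2 was the lowest of them and AZIP array 2 was the highest of its group. Gabrp rose in Pparg null kidneys (1.13 ± 0.16, 2.19-fold, adjusted p = 0.00290) and was at 0.26 ± 0.16 in AZIP kidneys (adjusted p = 0.459).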

How the data were processed

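Per the submitters' processing notes, the authors made the deposited log2 values with RMA in Affymetrix Expression Console, which corrects background, normalizes across arrays and summarises each probe set. The sources used here name no version, setting or genome build of the array. Array medians lay between 7.17 and 7.21. Of 35556 probe sets 21789 had 1 gene symbol, 1621 several and 12146 none. Symbols were updated by Entrez number for 21698, and 91 kept the platform's. The probe set with the highest mean was used for each gene. The file holds no detection calls, and the number of arrays limits the precision.

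One limma model (limma 3.58.1, R 4.3.3) gave the means of the 4 groups from the 12 arrays (median SE 0.0698, residual degrees of freedom 8 and prior 3.71), with p-values adjusted by Benjamini and Hochberg over all genes, and the code was tested on simulated data. Samples were grouped by their titles. The alternatives were renormalization, filters on dim probe sets at percentiles 25 and 50, other variance models, fits of only the groups compared, averaging the probe sets of a gene, the replicate number as a block, a threshold of 0.10 and each array left out. The keratins, 13 further lists (193 entries, 181 measured) and the rule for naming genes were chosen with earlier results of these data known. The rule named all 10 keratins, other keratins past the threshold, up to 4 genes of a list per comparison, a few defining markers and the 6 genes most like Krt5 and Krt19. Other list members were named after their values were seen. Protein sequences were not used here.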

Additional observations from a re-analysis of the deposited data

Results flagged for a closer look

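Krt5 had a larger effect in the Pparg null than in the AZIP comparison. Its Pparg null effect minus its AZIP effect was 1.63 ± 0.20 on the log2 scale (limma adjusted p = 0.0215), with all 3 Pparg null arrays above all 3 mixed controls and AZIP arrays overlapping FVB controls. The Pparg null values on which the list was chosen make up most of this difference, so the p is not independent evidence. The threshold was missed without mixed control 1 or 2, AZIP 1, 2 or 3 or FVB control 2 (adjusted p up to 0.0915) and with the replicate block (adjusted p = 0.114).

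The mean of the basal keratins minus that of the simple and superficial keratins moved in opposite directions in the lines. It was higher on every Pparg null array than on any mixed control array, by 0.42 on average, and lower on every AZIP array than on any FVB control array (-0.31), and these changes differed by 0.72. The control groups also differed, at -2.93, -2.84 and -2.91 in FVB controls against -3.16, -3.15 and -3.07 in mixed controls. The AZIP arrays, at -3.09, -3.44 and -3.06, were below FVB controls but not set apart from mixed controls. Without AZIP array 2 the AZIP change was -0.18 and the changes differed by 0.60. This difference was not tested, since the genes were chosen with results known.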

How the results depend on the processing

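Of 804 differences of single keratins under the alternatives, 755 kept their direction and their side of the threshold. The threshold was lost in 31 and gained in 10, and 8 changed sign. All 8 were without 1 array and in differences that had not passed. In many of the 804 the direction could not change. The dim-gene filters, other variance models, fits of only the groups compared, replicate block and averaged probe sets leave a keratin's difference as it is. So does leaving out an array outside the comparison. Those settings bear only on the side of the threshold. With each array left out in turn, the AZIP difference was -0.040 (without FVB control 3) to 0.140 for Krt6a, -0.034 (without FVB control 1) to 0.131 for Krt14, and -0.109 to 0.056 for Krt17 (0.056 without AZIP 2 and 0.0086 without FVB control 1). The difference of effects was -0.100 to 0.020 for Krt8 (0.014 without AZIP 2 and 0.020 without FVB control 3), and the difference between the controls was -0.124 to 0.035 for Krt14 (0.035 without FVB control 1) and -0.0087 (without mixed control 2) to 0.098 for Krt17. In each comparison the cause was not tested.

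The count of keratins past the threshold with 1 array left out was 4 to 6 in the Pparg null comparison, 0 to 1 in the AZIP comparison (0 without AZIP 2 or FVB control 1), 0 to 2 in the difference of effects and 0 to 2 between the controls. Without genes under percentile 50 of mean expression, where only 3 of the 10 keratins were tested, it was 1 in the Pparg null comparison and 0 in the difference of effects. Between the controls it was 3 with quantile normalization again, and 2 without genes under percentile 25, with only the groups compared and at an adjusted p under 0.10. Deviations of same-numbered arrays correlated at 0.184, 0.179 and 0.0086 in the Pparg null comparison, against -0.260 to 0.147 for differently numbered arrays. In the AZIP comparison they correlated at -0.036, -0.103 and -0.0099, against -0.108 to 0.154. The 0.184 and 0.179 were the highest of the Pparg null comparison, so these values do not settle whether replicate numbers pair the arrays there. With the replicate number as a block, 7 keratins, Krt17 included, passed in the Pparg null comparison, 1 in the AZIP comparison, 0 in the difference of effects, where Krt5 had a limma adjusted p of 0.114, and 1 between the controls.

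Over all genes, the Pparg null count of 1055 was 330 to 1220 with 1 array left out, 607 with only the groups compared and 1938 at an adjusted p under 0.10. The AZIP count of 485 was 62 to 606 with 1 array left out, 162 with only the groups compared, 785 with a variance trend, 836 without genes under percentile 50 and 1035 at an adjusted p under 0.10. The count of 1439 between the controls was 852 to 1596 with 1 array left out, and the 4 genes of the difference of effects were 0 to 9.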
